A study of Homo sapiens with 4 samples.

Results

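Described here are 35 genes of the hypoxia-inducible factor (HIF) system outside glycolysis. They comprise HIF subunits, the enzymes that mark HIF for destruction, and transcripts that HIF is known to switch on. They were listed by name and found by an exact match of the gene symbol, as 35 of the 44591 genes in the deposited tables, and all 35 were among the 23942 genes with at least 5 reads summed over the 4 libraries. The list was drawn up because hypoxia genes were higher after siLINC01186 in replicate 1 and not in replicate 2, so the comparison of the groups and the order of the libraries describe these genes and are not a test of them.

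The libraries are poly(A) RNA-seq of cells labelled HepG2, an established human liver cancer line, made to find genes regulated by LINC01186, a long noncoding RNA that the study calls SALIS. Cells received a control siRNA (siNC, 2 libraries) or an siRNA against LINC01186 (siLINC01186, 2 libraries). After transfection all of them spent 6 h in serum-free medium and then 24 h in medium with 10% serum, and no group was placed under low oxygen by any label. The study used the same siNC and different oligos against LINC01186 in its replicates, while no label names the oligo that a given library received.

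HIF is a pair of proteins, an oxygen-regulated alpha subunit (HIF1A or EPAS1) and the constant partner ARNT. In oxygen, prolyl hydroxylases such as EGLN1 and EGLN3 mark the alpha subunit for the ubiquitin ligase part VHL, and HIF1AN blocks its transactivating end, all of which acts on protein and leaves the transcript of the subunit in place. When oxygen is short, HIF binds short DNA elements near genes for acid handling, vessel growth, collagen processing, mitophagy and its own hydroxylases, which is why transcripts such as CA9, NDRG1 and BNIP3 are used as markers of hypoxia in liver cancer cells.

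The libraries held 14968958 to 17297245 reads. Levels are given as CPM, the reads of a gene per 1000000 reads of a library size scaled by the TMM method, and 3 reads correspond to 0.169 to 0.210 CPM (counting error only). The target of the siRNA had 15 and 14 reads in siNC replicates 1 and 2 and 12 and 14 in siLINC01186 replicates 1 and 2. In edgeR's quasi-likelihood test LINC01186 gave a log2 fold change of -0.12 ± 0.53 (standard error) and an unadjusted p of 0.831. A lower level was thus not detectable at this depth, and every direction below is between libraries as labelled. The paper reports the knockdown in HepG2 cells from qPCR, without stating whether the same cultures were sequenced. Of 10 hepatocyte markers, 9 passed the read minimum, and their summed level was 4.96 and 17.8 CPM in siNC replicates 1 and 2 and 6.30 and 15.9 CPM in siLINC01186 replicates 1 and 2. ALB, the albumin gene that marks hepatocytes and the HepG2 line, had 0, 15, 0 and 14 reads in that order, and AFP had 2, 6, 4 and 16. The defining transcripts of the labelled line were thus near 0 in all 4 libraries, and they were higher in the replicate 2 libraries. Of 15 markers of other cell types 12 passed the minimum, with sums of 110 and 154 CPM in the siNC libraries and 118 and 155 CPM in the siLINC01186 libraries. The only one of these past the limits used below was KRT5, a basal epithelial keratin, with 28 and 41 reads against 44 and 97 (log2 fold change 1.02, unadjusted p of 0.0414 from edgeR). The part of cell identity in the values below was not tested, and in bulk RNA fewer cells of a kind and less RNA per cell cannot be told apart.

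As a description of a list chosen on these same values, siNC replicate 1 was low for most of the hypoxia genes. It was the lowest of the 4 libraries for 25 of the 35 genes, where 23.8% of all genes tested had their lowest value in that library, and it was the highest for 0 of the 35 (22.3% of all genes). The siNC replicate 2 library was the highest for 21 (25.8%) and siLINC01186 replicate 1 for 9 (25.5%). Summed over the 35 genes, the level was 2650 and 3975 CPM in siNC replicates 1 and 2 and 3625 and 3385 CPM in siLINC01186 replicates 1 and 2. The count of 25 lay between 21 and 27 under the other scalings of the libraries, whereas the count of 9 fell to 2 with deposited TPM values, the authors' counts per gene length scaled to 1000000.

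**Figure D1:**
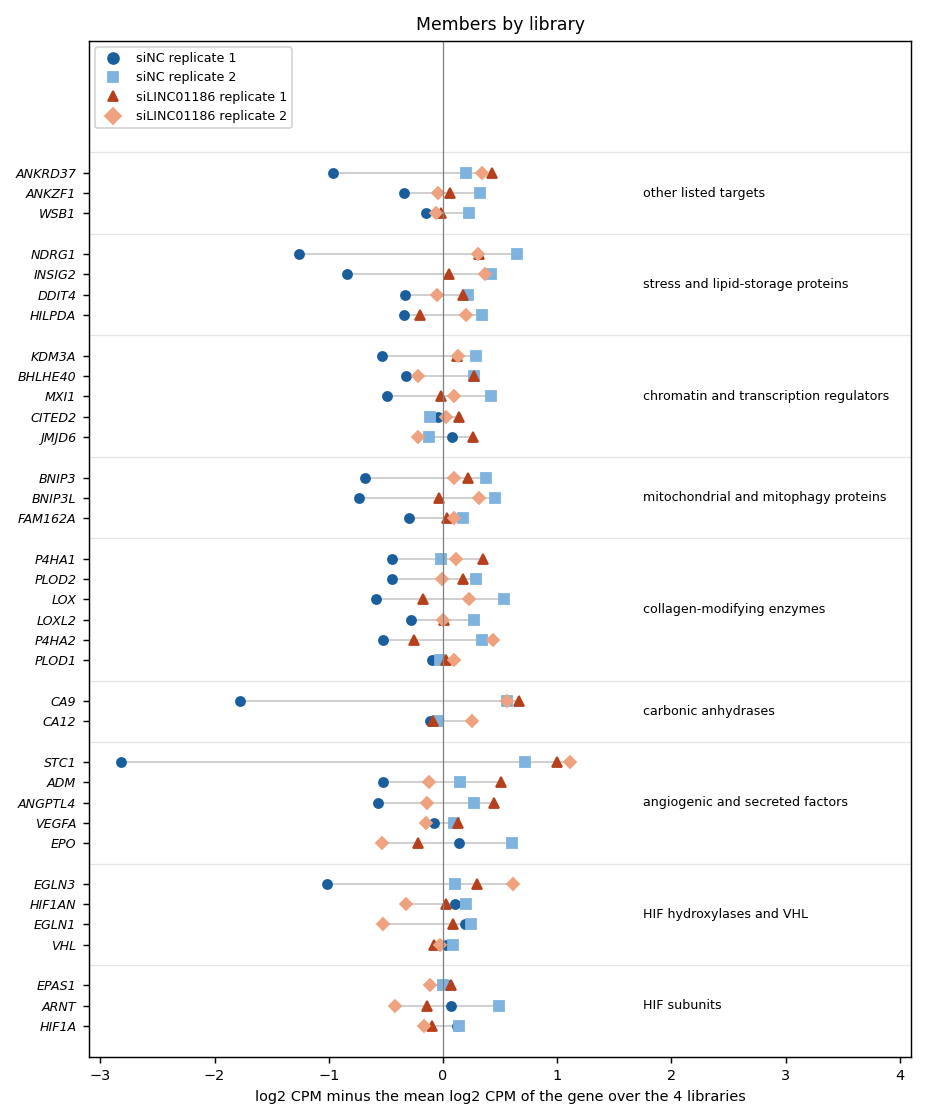
Level of each of the 35 genes in each library, as log2 CPM minus the mean log2 CPM of that gene over the 4 libraries (horizontal axis), with genes grouped by role (vertical axis). Each point is 1 library and the grey line spans the gene's range, with the dark blue circles of siNC replicate 1 furthest left for 25 of the 35 genes and furthest right for 0.

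Between the control libraries alone, siNC replicate 2 was above siNC replicate 1 for 32 of the 35 genes (51.8% of all genes tested) and by more than 1.5-fold for 18 (18.3%), with a median log2 difference of 0.59 over the 35 genes and 0.02 over all genes tested. In 9 of the 35 genes siNC replicate 1 was below each of the other libraries by more than 1.5-fold (4.57% of all genes). These were CA9, NDRG1, STC1, EGLN3, ANKRD37, INSIG2, BNIP3, BNIP3L and KDM3A. In 0 of the 35 genes was siLINC01186 replicate 1 above each other library by that factor (2.64%). Among the 11779 genes with a mean of at least 5 CPM, 46 had siNC replicate 1 below each other library by more than 1.5-fold (0.391%), and 7 of these 46 (15.2%) were listed here, 5 (10.9%) were on a list of other hypoxia-inducible genes, 1 (2.17%) was glycolytic and 33 (71.7%) were on no list.

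The promoters of the genes with the lowest siNC replicate 1 values are shown to display what HIF could bind there. RefSeq promoter windows of GRCh38.p14, from 250 bases before to 50 after the annotated start, were at hand for 26 of the 35 genes, in 35 windows, and those of VHL, STC1, VEGFA, BNIP3L, ANKZF1, HILPDA, NDRG1, JMJD6 and LOXL2 were not used here. The core of the HIF response element was searched as ACGTG or GCGTG on either strand, so it reads CACGT or CACGC on the opposite strand, and the palindrome CACGTG counts once on each strand. The 250 bases before the start lie at chr9:35673678-35673927 (plus strand) for CA9, chr14:33951075-33951324 (minus strand) for EGLN3, chr4:185396591-185396840 (plus strand) for ANKRD37, chr2:118088221-118088470 (plus strand) for INSIG2, chr10:131981924-131982173 (minus strand) for BNIP3 and chr2:86441121-86441370 (plus strand) for KDM3A. They are written 5′ to 3′ on the strand of the gene, with the cores in capitals. INSIG2 and KDM3A have a second window that overlaps the one shown.
CA9: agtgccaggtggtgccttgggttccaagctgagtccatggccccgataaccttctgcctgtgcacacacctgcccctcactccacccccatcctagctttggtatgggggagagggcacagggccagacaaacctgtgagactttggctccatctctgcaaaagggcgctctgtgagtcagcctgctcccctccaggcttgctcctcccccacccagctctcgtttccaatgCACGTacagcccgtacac
EGLN3: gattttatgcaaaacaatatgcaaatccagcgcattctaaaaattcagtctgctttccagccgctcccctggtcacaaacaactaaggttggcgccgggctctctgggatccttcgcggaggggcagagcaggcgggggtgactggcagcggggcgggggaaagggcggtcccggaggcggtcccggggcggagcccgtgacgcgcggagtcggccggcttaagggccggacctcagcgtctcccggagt
ANKRD37: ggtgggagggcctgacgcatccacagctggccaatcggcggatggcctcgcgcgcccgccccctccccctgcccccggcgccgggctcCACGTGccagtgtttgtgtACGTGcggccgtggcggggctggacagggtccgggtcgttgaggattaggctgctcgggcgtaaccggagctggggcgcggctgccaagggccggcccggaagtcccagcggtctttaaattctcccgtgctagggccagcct
INSIG2: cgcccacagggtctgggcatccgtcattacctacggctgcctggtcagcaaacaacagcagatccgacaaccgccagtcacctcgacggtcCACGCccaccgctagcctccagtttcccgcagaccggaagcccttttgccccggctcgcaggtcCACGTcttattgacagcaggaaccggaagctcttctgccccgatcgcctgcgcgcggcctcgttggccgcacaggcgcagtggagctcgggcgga
BNIP3: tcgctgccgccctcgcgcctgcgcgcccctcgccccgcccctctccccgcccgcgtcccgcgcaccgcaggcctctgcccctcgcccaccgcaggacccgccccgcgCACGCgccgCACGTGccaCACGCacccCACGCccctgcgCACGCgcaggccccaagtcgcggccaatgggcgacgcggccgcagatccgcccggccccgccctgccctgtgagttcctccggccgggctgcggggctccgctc
KDM3A: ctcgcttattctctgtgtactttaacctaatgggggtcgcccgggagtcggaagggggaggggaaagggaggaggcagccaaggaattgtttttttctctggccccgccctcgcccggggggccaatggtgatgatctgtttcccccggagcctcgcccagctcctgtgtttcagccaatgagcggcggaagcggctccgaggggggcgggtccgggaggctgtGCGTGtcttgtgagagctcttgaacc

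In CA9 the single core lay from base -18 to -14 before the start on the opposite strand. BNIP3 held 6 cores in 1 window and ANKRD37 held 3, including in both the palindrome read on either strand. INSIG2 held 2 and KDM3A held 1 in the windows shown. EGLN3 held none in its window, as did ARNT, HIF1AN and P4HA2. In all, 22 of the 26 genes (84.6%) held either core, against 52.4% of 27305 genes with a promoter window and 71.7% of 8817 such genes with a mean of at least 5 CPM here. ACGTG alone was in 15 of the 26 (57.7%), against 24.9% and 33.3%. The windows of the 26 genes had a median GC content of 66.7%, against 58.7% over all windows and 65.3% over those of expressed genes, and the part of base composition in these shares was not tested. A match of 5 letters is a description of sequence and does not show binding. The list was drawn up from known HIF targets and HIF regulators, so these shares describe it and do not test it.

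**Figure D2:**
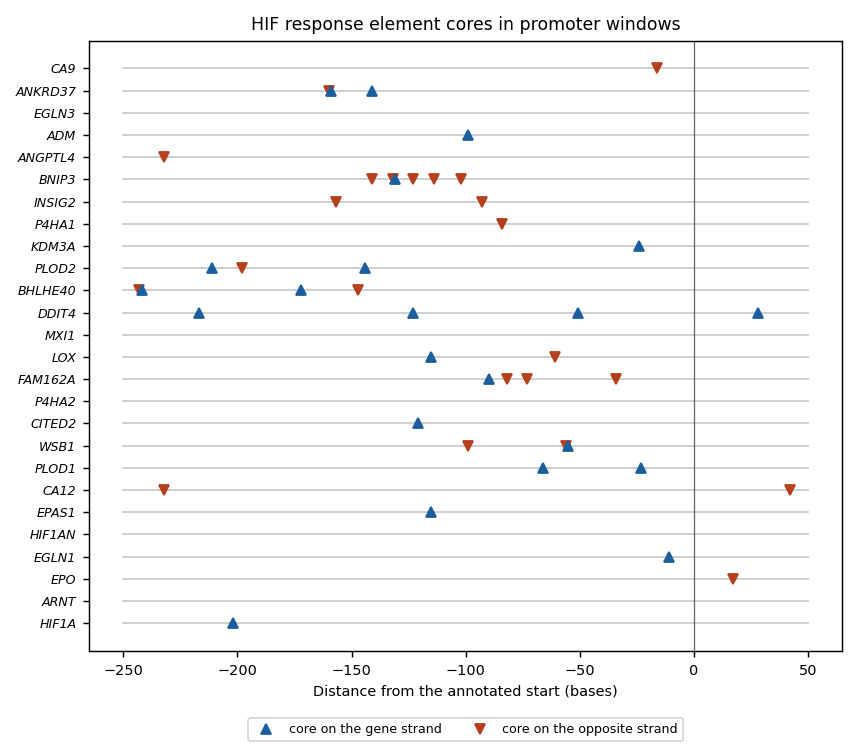
Positions of ACGTG and GCGTG cores in the first RefSeq promoter window of the 26 genes that have one, as distance from the annotated start in bases (horizontal axis), with genes in order of their replicate 1 pair difference (vertical axis). Upward triangles are cores on the strand of the gene and downward triangles cores on the opposite strand, and EGLN3, ARNT, HIF1AN and P4HA2 have none, while MXI1 has cores only in windows not drawn.

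The 2 replicate pairs compared siLINC01186 with siNC under the same replicate number, with 1 library per group in each, so neither pair has a test and the difference between the pairs could not be tested. In the replicate 1 pair 29 of the 35 genes were higher after siLINC01186 (50.7% of all genes tested), or 21 with deposited TPM, and 14 were higher by more than 1.5-fold (11.2%) against 0 lower by that factor (10.8%). In the replicate 2 pair 9 were higher (49.7%), 0 by more than 1.5-fold (11.8%), and 3 were lower by more than 1.5-fold (11.1%). The median log2 difference was 0.40 in the replicate 1 pair and -0.25 in the replicate 2 pair, where the medians over all genes tested were 0.01 and 0.00. Of the 35 genes, 20 were higher in replicate 1 and lower in replicate 2 (23.3% of all genes) and 0 were the reverse (22.5%), while 9 were higher in both (27.2%) and 6 lower in both (26.6%). Beyond 2-fold, 7 were higher in the replicate 1 pair (5.26%) and 0 lower in the replicate 2 pair (4.54%). Of the 32 listed genes with a mean of at least 5 CPM, 12 were higher by more than 1.5-fold in the replicate 1 pair, where 0.883% of all genes at that level were. The list was chosen on these pairs, and nothing is read from these counts.

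**Figure D3:**
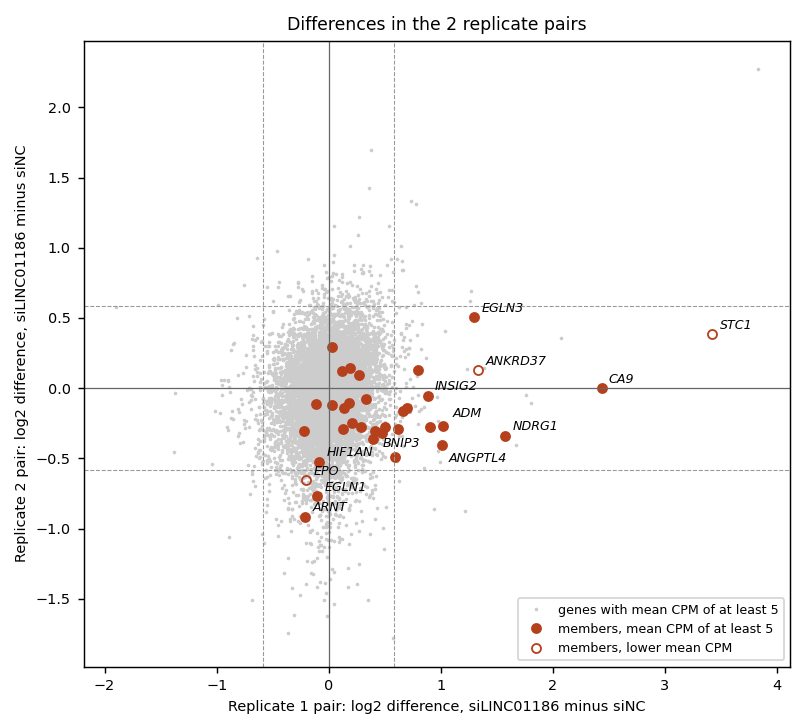
Log2 difference of siLINC01186 minus siNC in the replicate 1 pair (horizontal axis) and the replicate 2 pair (vertical axis), with the listed genes in red over all genes with a mean of at least 5 CPM in grey and open circles for the 3 listed genes below that mean. Dashed lines mark 1.5-fold, and 14 listed genes lie right of the right line while EGLN1, ARNT and EPO lie below the lower one.

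The HIF subunits kept near-level transcripts, apart from ARNT. HIF1A, the oxygen-regulated subunit best known for acute hypoxia, had 151 and 152 CPM in siNC replicates 1 and 2 and 129 and 123 CPM in siLINC01186 replicates 1 and 2. The siLINC01186 libraries were both below the siNC libraries, with log2 differences of -0.22 and -0.30 in the replicate 1 and 2 pairs. EPAS1, the HIF2 alpha subunit, had 258 and 251 CPM against 263 and 231 CPM, and its groups overlapped. ARNT, the constant partner, had 52.5 and 70.4 CPM in the siNC libraries and 45.4 and 37.3 CPM in the siLINC01186 libraries. Both siLINC01186 libraries were the lower ones for ARNT, by 0.21 in the replicate 1 pair and 0.91 in the replicate 2 pair on the log2 scale. The group means were 61.5 ± 12.7 CPM and 41.4 ± 5.74 CPM (SD, n = 2).

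Among the proteins that switch HIF off, EGLN3 and EGLN1 differed in the order of their libraries. EGLN3, a prolyl hydroxylase that is itself a HIF target, had 5.85 and 12.7 CPM in the siNC libraries and 14.6 and 18.1 CPM in the siLINC01186 libraries. The siLINC01186 libraries were both above the siNC libraries, by log2 differences of 1.30 and 0.50, and siNC replicate 1 was 2.17-fold below the next library. EGLN1, the main oxygen sensor among the prolyl hydroxylases, had 156 and 161 CPM against 145 and 94.8 CPM, log2 differences of -0.10 and -0.77. HIF1AN, the asparaginyl hydroxylase, had 81.1 and 86.5 CPM against 76.6 and 60.1 CPM, with siLINC01186 replicate 2 the lowest library as for EGLN1. VHL, the substrate receptor that binds hydroxylated HIF, had 122 and 127 CPM against 113 and 117 CPM, log2 differences of -0.11 and -0.12. The siLINC01186 replicate 2 library was the lowest for 8 of the 35 genes, a share near the 25.1% of all genes tested. These were EGLN1, HIF1AN, HIF1A, ARNT, EPAS1, VEGFA, JMJD6 and EPO.

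CA9 is a membrane carbonic anhydrase that takes part in acid handling in hypoxic cells. It had the lowest siNC replicate 1 value relative to its other libraries among the listed genes with a mean of at least 5 CPM. It had 277 and 1353 reads in siNC replicates 1 and 2 and 1285 and 1490 reads in siLINC01186 replicates 1 and 2, which is 16.5, 83.8, 89.9 and 83.8 CPM. The other 3 libraries lay within 1.07-fold of each other and siNC replicate 1 was 5.07-fold below the lowest of them, the widest such gap among the 11779 genes with a mean of at least 5 CPM. The replicate 1 pair therefore gave 5.41-fold (log2 difference 2.43, rank 2 of those genes) and the replicate 2 pair 1.00-fold (log2 difference 0.00). CA12, the other membrane carbonic anhydrase listed, had 52.6 and 55.4 CPM in the siNC libraries and 53.7 and 67.9 CPM in the siLINC01186 libraries. It did not share the low siNC replicate 1 value of CA9, being within 1.02-fold of the next library.

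The stress and lipid-storage genes held the most abundant members. NDRG1, a growth-arrest and stress protein, had 197 and 741 CPM in the siNC libraries and 588 and 585 CPM in the siLINC01186 libraries. The siLINC01186 libraries were level with each other and lay between the siNC libraries, so that the log2 difference was 1.58 in the replicate 1 pair and -0.34 in the replicate 2 pair. INSIG2, which retains the sterol sensor in the endoplasmic reticulum, had 13.2 and 31.5 CPM against 24.4 and 30.4 CPM, log2 differences of 0.88 and -0.05. DDIT4, an inhibitor of mTORC1, and HILPDA, an inhibitor of lipid droplet breakdown, had log2 differences of 0.50 and 0.14 in the replicate 1 pair and -0.28 and -0.14 in the replicate 2 pair. DDIT4 had the highest level per length of the list, a mean of 569 TPM over the 4 libraries, followed by NDRG1 with 312 TPM.

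**Figure D4:**
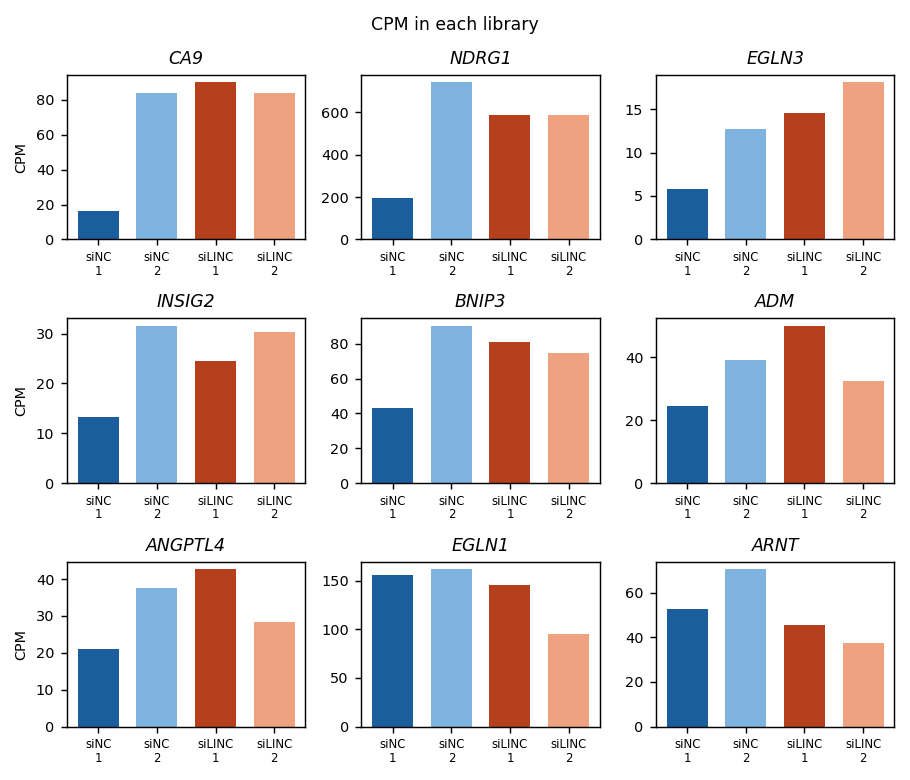
CPM (vertical axis, from 0, own scale in each panel) in each of the 4 libraries (horizontal axis, siLINC for siLINC01186, number for replicate) for 9 listed genes, 1 bar per library. CA9, NDRG1, EGLN3, INSIG2 and BNIP3 have 1 low bar in siNC replicate 1, ADM and ANGPTL4 are highest in siLINC01186 replicate 1, and EGLN1 and ARNT are lowest in siLINC01186 replicate 2.

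Of the secreted factors, ADM and ANGPTL4 were highest by CPM in siLINC01186 replicate 1 and lowest in siNC replicate 1. With deposited TPM values siNC replicate 2 was the highest for ANGPTL4, at 43.5 against 40.7 in siLINC01186 replicate 1. ADM, the vasodilator adrenomedullin, had 24.5 and 39.0 CPM in the siNC libraries and 49.97 and 32.3 CPM in the siLINC01186 libraries, log2 differences of 1.02 and -0.27. ANGPTL4, a lipoprotein lipase inhibitor, had 21.1 and 37.7 CPM against 42.6 and 28.4 CPM, log2 differences of 1.01 and -0.41. For both, siLINC01186 replicate 2 lay between the siNC libraries, so the groups overlapped. VEGFA, the vessel growth factor usually read as a HIF output, had 83.8 and 94.9 CPM against 96.9 and 79.9 CPM, and its groups overlapped within 1.21-fold.

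A further 3 genes were below a mean of 5 CPM and are given as reads with exact Poisson 95% intervals, which cover counting error only. STC1, the secreted calcium and phosphate regulator stanniocalcin, had 6 reads (2.20 to 13.1) in siNC replicate 1, 67 (51.9 to 85.1) in siNC replicate 2, 72 (56.3 to 90.7) in siLINC01186 replicate 1 and 97 (78.7 to 118) in siLINC01186 replicate 2. Only the siNC replicate 1 interval lay apart from the other 3. ANKRD37, an ankyrin-repeat HIF target, had 29 reads (19.4 to 41.6) and 63 (48.4 to 80.6) in the siNC libraries and 65 (50.2 to 82.8) and 76 (59.9 to 95.1) in the siLINC01186 libraries, again with siNC replicate 1 alone apart. EPO, the erythropoietin gene that liver cells switch on in hypoxia, had 3, 4, 2 and 2 reads in the same order, too few for a fold, so its place among the genes lower by more than 1.5-fold rests on single reads.

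The mitochondrial genes had lower values in siNC replicate 1 than elsewhere. BNIP3, a mitophagy receptor, had 43.3 and 90.2 CPM in the siNC libraries and 81.1 and 74.4 CPM in the siLINC01186 libraries, log2 differences of 0.90 and -0.28. BNIP3L, its close relative, had 39.4 and 90.1 CPM against 63.9 and 81.6 CPM, log2 differences of 0.70 and -0.14. FAM162A, a mitochondrial HIF target, had log2 differences of 0.33 and -0.08. All 3 were higher in the replicate 1 pair and lower in the replicate 2 pair, and for all 3 siNC replicate 2 was the highest library.

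Collagen-modifying enzymes gave smaller differences. P4HA1, the catalytic subunit of collagen prolyl 4-hydroxylase, had 51.1 and 68.9 CPM in the siNC libraries and 89.1 and 75.6 CPM in the siLINC01186 libraries, with the groups apart and log2 differences of 0.80 and 0.13. PLOD2, a collagen lysyl hydroxylase, had 31.9 and 53.0 CPM against 49.0 and 43.2 CPM, log2 differences of 0.62 and -0.29. P4HA2, PLOD1, LOX and LOXL2 had replicate 1 differences from 0.12 (PLOD1) to 0.42 (LOX) and replicate 2 differences from -0.30 (LOX) to 0.12 (PLOD1). For all 6 enzymes siNC replicate 1 was the lowest library.

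The chromatin and transcription regulators were led by KDM3A, a histone H3 lysine 9 demethylase, with 30.7 and 54.4 CPM in the siNC libraries and 48.5 and 48.7 CPM in the siLINC01186 libraries. Its log2 differences were 0.66 and -0.16. BHLHE40, a transcriptional repressor, had 90.6 and 137 CPM against 136 and 97.1 CPM, so the value of each siNC library lay next to the siLINC01186 library of the other number. Its log2 differences were 0.59 and -0.49, just past the 1.5-fold line in the replicate 1 pair, and DDIT4, at 0.50, was the nearest gene short of it. MXI1, a MYC antagonist, CITED2, a competitor of HIF for its coactivator, and JMJD6, a hydroxylase, had replicate 1 differences of 0.47, 0.19 and 0.18 and replicate 2 differences of -0.32, 0.14 and -0.10. CITED2 and JMJD6 were not lowest in siNC replicate 1. The remaining members ANKZF1 and WSB1 had differences of 0.40 and 0.13 in the replicate 1 pair and -0.37 and -0.29 in the replicate 2 pair, with siNC replicate 1 lowest and siNC replicate 2 highest for both.

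Over both replicates, the libraries of the groups did not overlap for 13 genes. Both siLINC01186 libraries were above both siNC libraries for 7 (13.6% of all genes tested), namely CA9, EGLN3, STC1, ANKRD37, P4HA1, PLOD1 and CITED2. They were below them for 6 (12.4%), namely HIF1A, ARNT, EGLN1, HIF1AN, VHL and EPO. For CA9 the replicate 2 libraries were level, at 83.84 CPM (siLINC01186) against 83.81 CPM (siNC). With deposited TPM values the groups overlapped for CA9, EGLN3, ANKRD37, PLOD1 and CITED2. EPO rests on 3 and 4 reads in the siNC libraries against 2 and 2. When edgeR's quasi-likelihood test was fitted to every gene, 0 of the 35 passed a log2 fold change beyond 1 with an unadjusted p under 0.05, the limits the study stated, where 0.464% of all genes passed as higher and 0.292% as lower. At an unadjusted p under 0.05 alone were 2 of the 35 (1.21% of all genes). They were EGLN3, at a log2 fold change of 0.82 ± 0.35 (standard error) with an unadjusted p of 0.0473 from edgeR, and ARNT, at -0.57 ± 0.22 with an unadjusted p of 0.0267 from edgeR. After Benjamini-Hochberg adjustment over all genes tested, 0 of the 35 and 0% of all genes had an adjusted p under 0.05 in that test, and DESeq2's Wald test gave 0 of the 35 and 0.00418% of all genes. By DESeq2 0 of the 35 passed the limits of fold and unadjusted p, where 0.0627% of all genes passed as higher and 0.0501% as lower. CA9, with a log2 fold change of 0.79, had a standard error of 0.55, and NDRG1, at 0.32, had 0.47. Leaving out a library changed which way the list lay. The list was drawn up because hypoxia genes were higher in the replicate 1 pair and not in the replicate 2 pair. The change is therefore tied to that choice and does not test the list. A fit without an siNC library also rests on 1 control library, so nothing is read from the counts it gave for the list. The median log2 fold change of the 35 genes was 0.11 with all libraries, -0.20 without siNC replicate 1 and 0.37 without siNC replicate 2. Without siNC replicate 2, 6 of the 35 were past the limits as higher, namely CA9, NDRG1, EGLN3, STC1, ANKRD37 and INSIG2, where 1.24% of all genes in that fit passed as higher. Without siNC replicate 1 there were 0 of the 35 (0.551% of all genes).

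Other genes of the pathway were counted from lists set beside the 35. Of 16 other HIF regulators, such as subunits of the VHL ligase and HIF coactivators, 0 passed the limits, with median log2 differences of 0.14 and -0.04 in the replicate 1 and 2 pairs. Of 34 hypoxia-inducible genes outside the list, which include the glycolytic regulator PFKFB4, 33 were tested, with medians of 0.34 and -0.10. Of these, 2 passed as higher (0.464% of all genes tested) and 0 as lower (0.292%). Of 20 glycolytic HIF targets 0 passed, with medians of 0.24 and -0.21. In the replicate 1 pair 18 of them were higher (50.7% of all genes tested) and in the replicate 2 pair 4 (49.7%). The 2 that passed were IGFBP3 and IGFBP1, binding proteins of insulin-like growth factors. IGFBP3 had 66.6 and 161 CPM in the siNC libraries and 281 and 207 CPM in the siLINC01186 libraries, log2 differences of 2.07 and 0.36. Its groups stood apart. Its lowest library was siNC replicate 1, which was also the lowest for CA9. IGFBP1 had 17.1 and 20.9 CPM against 58.3 and 20.2 CPM, so here siLINC01186 replicate 1 alone was high. Fits without an siNC library rest on 1 control library and are not counted for these lists. Lists of 11 ATF4 target genes, a stress program that shares DDIT4, and 10 proliferation genes had medians of 0.21 and 0.09, and of -0.01 and -0.20, with 0 genes past the limits in either.

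**Figure D5:**
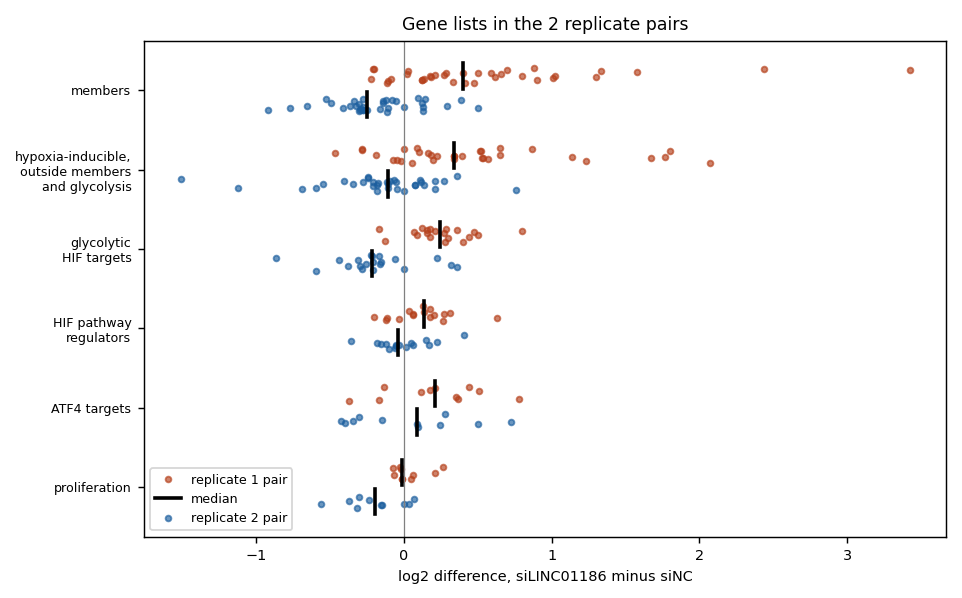
Log2 difference of siLINC01186 minus siNC (horizontal axis) for each gene of 6 lists (vertical axis), red for the replicate 1 pair and blue for the replicate 2 pair, with black bars at the medians. The median of the 35 listed genes is 0.40 in the replicate 1 pair and -0.25 in the replicate 2 pair, against 0.34 and -0.10 for other hypoxia-inducible genes and -0.01 and -0.20 for proliferation genes.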

How the data were processed

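Poly(A) RNA of 2 siNC and 2 siLINC01186 samples was sequenced as paired ends on an Illumina instrument. The authors deposited unnormalized counts per gene, and deposited TPM values that equal the counts over gene length scaled to 1000000 per library (largest difference 2.91e-05). The submitters' processing notes name HISAT2, TopHat2, Bowtie2, HISAT and the build hg19, without roles or versions. The counting program and its use of strand are not given in the sources used here.

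Genes with at least 5 counts summed over 4 libraries were compared in R 4.3.3 with edgeR 4.0.16 (TMM, quasi-likelihood test, no block), adjusted by the Benjamini-Hochberg method over 23942 genes. Pair differences are of log2 CPM with a prior count of 2. The test behind the study's RNA-seq comparison is not stated in its methods. The labels do not say whether libraries came from separate cultures, which the paper calls biological repeats, so p-values measure the spread between these samples. Simulated data with known group changes and no difference between replicates were used to check the fit. That check does not cover the replicate differences seen in these libraries.

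The alternatives were the replicate number as a block, DESeq2 1.42.0, its size factors, other count filters, leaving out each library, CPM by total count, TPM with a pseudocount of 0.1, a prior count of 0.5, members with at least 5 CPM, and a 2-fold limit. TPM without MIR6087 was added after the data were seen. The genes and lists were chosen with earlier results of these data known. All 35 genes are named, with values by library where the mean was at least 5 CPM and a pair differed beyond 1.5-fold, and for the HIF subunits, hydroxylases and VHL. Values by library for CA12, VEGFA and the genes below that mean were added after they were seen. Other listed genes are named where they passed the limits. Promoters were read with Python 3.11.15 from RefSeq, and sites for the remaining genes were not used here. Their coordinates are GRCh38.p14, and coordinates of the tables were not used.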

Additional observations from a re-analysis of the deposited data

How the results depend on the processing

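Of the 35 genes, 0 passed the limits as lower in any fit of all 4 libraries. With the replicate block 2 passed as higher, 1 gene of the other HIF lists passed, and after Benjamini-Hochberg adjustment in edgeR 278 of all genes had a p under 0.05. Those 2 were CA9 and STC1, where 0.501% of all genes passed as higher and 0.418% as lower. In that edgeR fit the adjusted p was under 0.05 for CA9, NDRG1, STC1, EGLN3 and P4HA1 as higher (0.347% of all genes). It was also under 0.05 for ARNT and EGLN1 as lower (0.814%). The list was chosen on these pairs, so these calls are not a test of its genes. A call as higher did not need both pairs: the log2 differences were 1.58 and -0.34 for NDRG1 and 2.43 and 0.00 for CA9 in the replicate 1 and 2 pairs. The labels tie same-numbered libraries by number alone. Across 11779 genes their deviations from the group means had a correlation of 0.678, and the first principal component, with 68.1% of the variance, separated the numbers. With 2 pairs this does not establish pairing. DESeq2's Wald test gave 15 higher and 12 lower genes and 1 at an adjusted p under 0.05. edgeR's expression filter gave 32 and 14, with 1 gene of the other lists, and at least 1 count in any library gave 5 at an adjusted p under 0.05 and 1 of the 35, STC1, as higher.

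Leaving out 1 library at a time gave 81 to 282 higher and 93 to 201 lower genes, 0 to 6 at an adjusted p under 0.05, 0 to 6 of the 35 as higher, 0 to 6 of the other lists as higher and 0 to 1 as lower, and a median log2 fold change of the 35 from -0.20 to 0.37. In these fits the lone library was assumed to vary like the other group, and nothing is read from their counts. LINC01186 kept its direction and stayed short of the limit in all of these fits, from -0.16 to -0.07.

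Deposited TPM moved the replicate 1 median of all genes to -0.23 and that of the 35 to 0.14, with 9 beyond 1.5-fold and 2 highest in siLINC01186 replicate 1. The share of TPM that fell on MIR6087 was 1.16% and 1.91% for siNC and 13.8% and 8.69% for siLINC01186. Without it 5 were highest there, and with CPM by total count 4. A 2-fold limit left 7 higher in the replicate 1 pair and 0 lower in the replicate 2 pair. Each pair rests on 1 library per group, and few reads limit STC1, ANKRD37 and EPO.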
